A study of Mus musculus with 9 samples.

Results

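Cultured mouse haematopoietic cells that were CD201+CD48− were compared with cultured CD201− cells by bulk RNA sequencing, over all genes, with positive values meaning higher in CD201+CD48− cells. The comparison uses 6 of the 9 libraries of the study, 3 replicates a side, chosen by their sort labels. Cultures were started from CD34−CD150+KSL haematopoietic stem cells (HSCs) of wild-type C57BL/6 bone marrow, where KSL means positive for Kit and Sca-1 and negative for lineage markers. All 6 samples share F12 expansion medium with 0.1% polyvinyl alcohol, thrombopoietin at 100 ng/ml and stem cell factor at 10 ng/ml. The design text speaks of 10 days of culture and the growth protocol of a week. One side holds CD201+CD150+CD48−KSL cells. The other is labelled CD201−KSL as its treatment and CD201−CD150+CD48+KSL in the library titles, so that its CD150 and CD48 gates are not settled by the labels. Each population comprised over 5000 sorted cells, and the age of the mice and any pooling of animals were not given in the sources used here. The labels do not say whether replicates came from separate cultures, so p-values reflect no more than the spread among these libraries, possibly technical.

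CD201, the receptor of protein C (gene Procr), and the SLAM family receptors CD150 (Slamf1) and CD48 are surface proteins used to sort blood stem and progenitor cells. Stem cells in bone marrow are mostly quiescent, and as they divide and differentiate they raise protein synthesis, nucleotide production and the machinery of replication. Cytokines such as thrombopoietin and stem cell factor drive division in culture, and the cells that keep the stem cell surface phenotype lie beside more differentiated progeny in the same well.

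Total counts lay between 3810123 and 5390543 per library, and 13663 to 15732 genes had at least 1 count. Mitochondrial transcripts took 1.14 to 1.24% of counts in all 6 libraries. Replicates of CD201+CD48− cells were close, with 77 to 97 genes over 2-fold away from the mean of the other 2 replicates. CD201− replicate 3 stood apart, with 584 such genes against 233 in each of the other CD201− libraries. Its counts differed from theirs with a chi-square of 13.4 and 12.8 per degree of freedom, against 1.57 between those libraries. It had the fewest genes detected (13663). Y-linked transcripts were present at similar levels in every library (389 to 452 CPM summed over 4 genes) and Xist was close to 0 (0 to 0.253 CPM).

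Procr and Cd48 were read as a check of the labels, since the sort used their proteins. Procr (chromosome 2, 155751125 to 155755478, mm10) stood at 67.1, 59.6 and 62.9 CPM (counts scaled to the size of the library) in the 3 CD201+CD48− libraries and at 3.76, 4.52 and 2.41 CPM in the 3 CD201− libraries. Cd48 stood at 6.18, 6.32 and 5.09 against 127, 119.8 and 127 CPM. Procr fit the labels in every library. Cd48 fit the CD48− label of the one side and the library titles of the other, whose treatment label gives no CD48 state. Slamf1, the gene of CD150, stood at 56.7, 57.1 and 58.7 against 43.6, 45 and 52.8 CPM, without overlap (0.29 ± 0.11, adjusted p = 0.0355). That call was lost in 7 of 16 alternatives, 5 of them with 1 library left out, and the adjusted p lay between 0.00144 and 0.124 over all 16. All 3 genes encode antigens used in the sort and are not counted as findings. How far the Cd48 and Slamf1 differences follow from the gates is not settled, since those gates are unclear for CD201− cells.

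Nearly 1 in every 2 tested genes differed between the populations. Of 11619 genes that passed a filter on low counts, 5585 (48.1%) had an adjusted p under 0.05 in the quasi-likelihood test of edgeR, 2807 higher (24.2%) and 2778 lower (23.9%) in CD201+CD48− cells. The 2 directions differed in size. Higher genes had a median absolute log2 fold change of 0.84 and lower genes one of 0.51, and 1162 genes (10.0%) were higher by at least 2-fold against 254 (2.19%) lower by that much. At least 8-fold differences counted 198 genes upward and 24 downward. Replicate values of the populations did not overlap in 6414 tested genes (55.2%), and in 96.3% of the genes past the threshold. At the other end, 1453 genes (12.5%) had a 95% interval of the fold change that lay wholly within 1.25-fold in either direction, and the remaining genes that missed the threshold are not shown to be equal. In bulk RNA, fewer cells that express a gene and less of its RNA per cell cannot be told apart. Counts of calls depend on scaling. With library size alone, without a factor for composition, 70.2% of calls were upward in place of 50.3%, 3974 higher and 1685 lower, and the median of all genes moved from 0.00 to 0.17 on the log2 scale.

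The direction of change went with the level of the gene. Tested genes were cut into 5 equal bins by their mean CPM over both groups, a measure that grows with transcript length as well as abundance. In the lowest bin (0.714 to 9.04 CPM) 33.8% of genes were higher and 6.20% lower. In the highest bin (112 to 5947 CPM) 11.4% were higher and 46.4% lower. Genes higher by at least 2-fold had a median level of 7.56 CPM, all higher genes one of 22.8 CPM and lower genes one of 81.5 CPM.

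**Figure D1:**
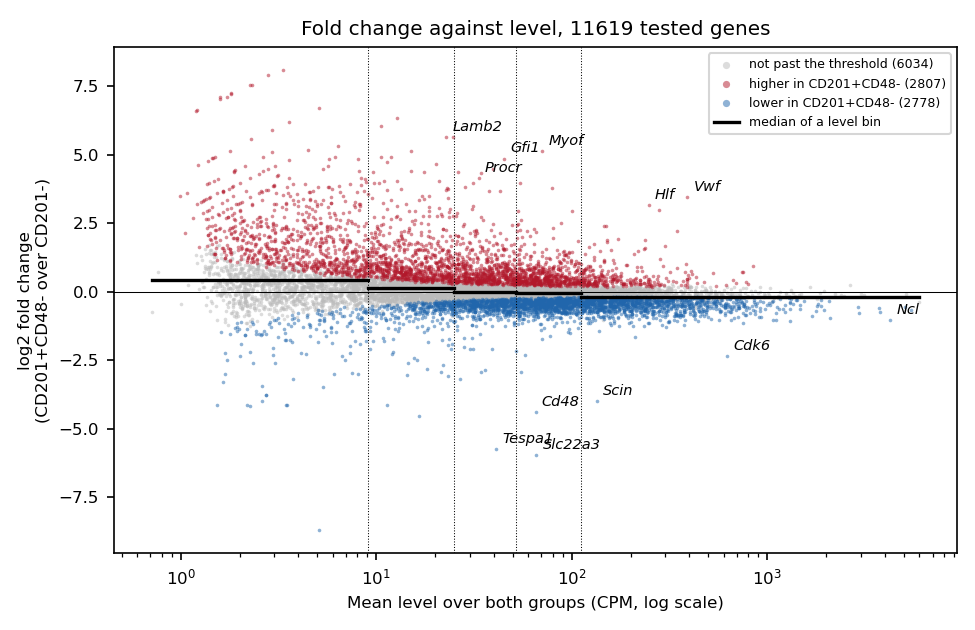
Log2 fold change (CD201+CD48− over CD201−) of each of the 11619 tested genes against its mean level over both groups in CPM, on a log axis. Red points are the 2807 higher genes, blue points the 2778 lower genes and grey points the 6034 genes that missed the threshold; dotted lines part the 5 level bins, and black bars are the median of each bin, which falls from left to right.

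The most increased genes after the top 10 included several of secreted and matrix proteins. Fstl1, which encodes a secreted follistatin-like glycoprotein, stood at 65.3, 64.9 and 65.3 CPM in CD201+CD48− libraries against 4.65, 2.58 and 2.41 CPM in CD201− libraries (log2 fold change 4.34 ± 0.17, SE; adjusted p = 3.71e-11). C3, the central component of complement, stood at 52.8, 44.2 and 53.1 against 1.77, 2.58 and 2.85 CPM (4.37 ± 0.19, adjusted p = 1.35e-10). Ltbp1, whose product holds latent TGF-beta in the matrix, stood at 46.3, 38.2 and 32.8 against 1.99, 0.861 and 1.75 CPM (4.66 ± 0.24). In all of these the lowest CD201+CD48− library lay over 10 times above the highest CD201− library. Ndnf, a secreted glycoprotein gene first described in neurons, stood at 21.4, 24.3 and 19.9 against 0.885, 0.645 and 0.877 CPM (4.72 ± 0.33). Pdgfc, a platelet-derived growth factor ligand, stood at 12, 9.6 and 11.1 CPM against 0, 0 and 1.31 CPM, so that all its CD201− counts came from replicate 3. Its fitted value of 4.57 ± 0.53 depends on those few counts and was 8.84 without that library.

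Genes of adhesion, cell junctions and the cytoskeleton were in these ranks too. Ephb4, the receptor tyrosine kinase of ephrin B2, stood at 15.7, 15.7 and 16.2 against 0.885, 0.861 and 0.877 CPM (4.14 ± 0.26, adjusted p = 5.92e-09). Ocln, the tight junction gene occludin, stood at 13.2, 18.2 and 15.3 against 0, 0.645 and 0.877 CPM (4.86 ± 0.42). Shroom3, an actin-binding regulator of cell shape, stood at 17.8, 20.7 and 22.8 against 0.443, 1.29 and 0.219 CPM (4.91 ± 0.32). Each of these genes was near the detection limit in CD201− cells and counted in all 3 CD201+CD48− libraries. Obsl1, a cytoskeletal adaptor gene, stood at 40.1, 37.9 and 41 against 1.77, 2.58 and 2.85 CPM (4.03 ± 0.17) and Sorcs1, a sortilin-type receptor gene, had a log2 fold change of 4.35 ± 0.29. Pde3a, a phosphodiesterase of cyclic nucleotides, reached 4.46 ± 0.56, and the small G protein modulator gene Sgsm1 4.42 ± 0.24. The immune GTPase gene Gimap4 stood at 69.6, 85.9 and 72.8 against 4.65, 4.3 and 1.31 CPM (4.46 ± 0.22), and its relative Gimap6 at 353, 348 and 350.0 against 108, 111 and 138 CPM (1.56 ± 0.09). These 2 genes lie in a cluster of similar genes on chromosome 6, and the handling of shared reads was not given in the sources used here. Values resting on few CD201− counts moved by over 1.5 times when a CD201− library was left out: Ocln to 5.45 and Sorcs1 to 5.01 without replicate 3, Shroom3 to 5.84 and Pde3a to 5.38 without replicate 2.

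The genes with the largest gain in CPM included several of cell adhesion, trafficking and gene regulation. Adgrl4, an adhesion G protein-coupled receptor known from blood vessels (chromosome 3, 151437882 to 151545081), stood at 492, 496 and 492 CPM against 67.5, 57 and 62.7 CPM, a log2 fold change of 2.98 ± 0.09 (adjusted p = 3.39e-12). Itsn1, an endocytic scaffold gene (chromosome 16, 91729310 to 91920591), stood at 568, 585 and 555 against 110.2, 106 and 150.3 CPM (2.22 ± 0.12). Syne2, which encodes a nuclear envelope spectrin repeat protein, stood at 473, 444 and 441 against 136, 134 and 160.4 CPM (1.66 ± 0.09). CD201− replicate 3 was the highest of its group for Itsn1 and Syne2, and the groups stayed apart by more than 2-fold all the same. Smaller gains of genes with high counts were those of the cytoskeletal linker gene Dst (0.95 ± 0.08), the RNA-binding protein genes Zfp36l2 (0.73 ± 0.11) and Msi2 (0.67 ± 0.08), the osmotic stress factor gene Nfat5 (0.76 ± 0.07) and the histone H3K4 methyltransferase gene Kmt2a (0.72 ± 0.08). Msi2 stood at 670.2, 645 and 634 against 438, 401 and 385 CPM and Kmt2a at 912, 924 and 939 against 531, 565 and 589.5 CPM, with no overlap.

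Lower genes past the first 10 included regulators and effectors of myeloid and cytotoxic cells, tubulins and one cell cycle kinase. Cdk6, the kinase that pairs with D-type cyclins in G1 (chromosome 5, 3341004 to 3531008), stood at 209, 188 and 213 CPM against 1065, 1059.9 and 987 CPM (−2.35 ± 0.09, adjusted p = 2.02e-11). Cebpa, a transcription factor gene of the granulocyte and monocyte lineages, stood at 1.94, 0.758 and 1.11 against 14.2, 12 and 6.57 CPM (−3.01 ± 0.38, adjusted p = 1.11e-05). Both were lower in each CD201+CD48− library than in any CD201− library, Cdk6 at a high level and Cebpa at a low one. Cd244, a SLAM family receptor gene, stood at 5.65, 7.07 and 4.87 against 35.4, 37 and 41 CPM (−2.70 ± 0.16), and the adhesion receptor gene Adgrg3 at 23.7, 16.9 and 15.5 against 87, 89.9 and 78 CPM (−2.16 ± 0.14). The tubulin genes Tuba8 (−2.94 ± 0.15) and Tubb6 (−2.59 ± 0.17) were lower. Tuba8 stood at 10.9, 14.9 and 12.6 against 84.5, 91.4 and 115 CPM. Pcdh7, a protocadherin gene (6.71, 7.07 and 10.2 against 56.7, 67.8 and 56.5 CPM), and Nlrc3, an NLR family gene (9.53, 8.34 and 7.97 against 68.6, 68.4 and 52.6 CPM), had log2 fold changes of −2.92 ± 0.16 and −2.86 ± 0.15. Bcat1, the cytosolic branched-chain amino acid transaminase gene, stood at 21.4, 22.2 and 14.2 against 98.3, 96.6 and 92.5 CPM (−2.31 ± 0.13). Zbtb16, the gene of the zinc finger factor PLZF, was lower (−2.49 ± 0.31), the inflammatory adaptor gene Card9 (−2.37 ± 0.31) and the ferrireductase gene Steap3 (−2.10 ± 0.25). The granule genes Gzmb, Cst7 and Nkg7 had log2 fold changes of −2.83 ± 0.20, −2.23 ± 0.31 and −2.98 ± 0.36, the last of which was −3.79 without CD201+CD48− replicate 1.

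Genes with the largest loss in CPM encoded nucleolar, cytoskeletal, chaperone and RNA-binding proteins. Ncl, the nucleolar protein gene nucleolin, stood at 2706, 2897 and 2709.6 CPM against 4849, 4886 and 7472 CPM (−1.05 ± 0.15, adjusted p = 3.26e-05). Npm1, the nucleophosmin gene, stood at 1330.5, 1443 and 1438 against 2342, 2384 and 3559.9 CPM (−0.98 ± 0.13). Mki67, the proliferation antigen Ki-67, stood at 2200.5, 2160.2 and 2085 against 3325, 3315 and 4520.3 CPM (−0.79 ± 0.12). In all of these CD201− replicate 3 was far above the other CD201− libraries, and the lowest CD201− library still lay above every CD201+CD48− library. Actb, the cytoplasmic beta-actin gene, did not share that pattern, at 4044, 4135 and 4098 against 6241, 6296 and 5505 CPM (−0.56 ± 0.09). The RNA-binding protein genes Ybx1 (−1.02 ± 0.12), Hnrnpab (−1.02 ± 0.16), Serbp1 (−0.88 ± 0.15) and Hnrnpu (−0.67 ± 0.12) were lower as well. Myh9, the gene of a non-muscle myosin heavy chain, was lower (−0.73 ± 0.13).

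**Figure D2:**
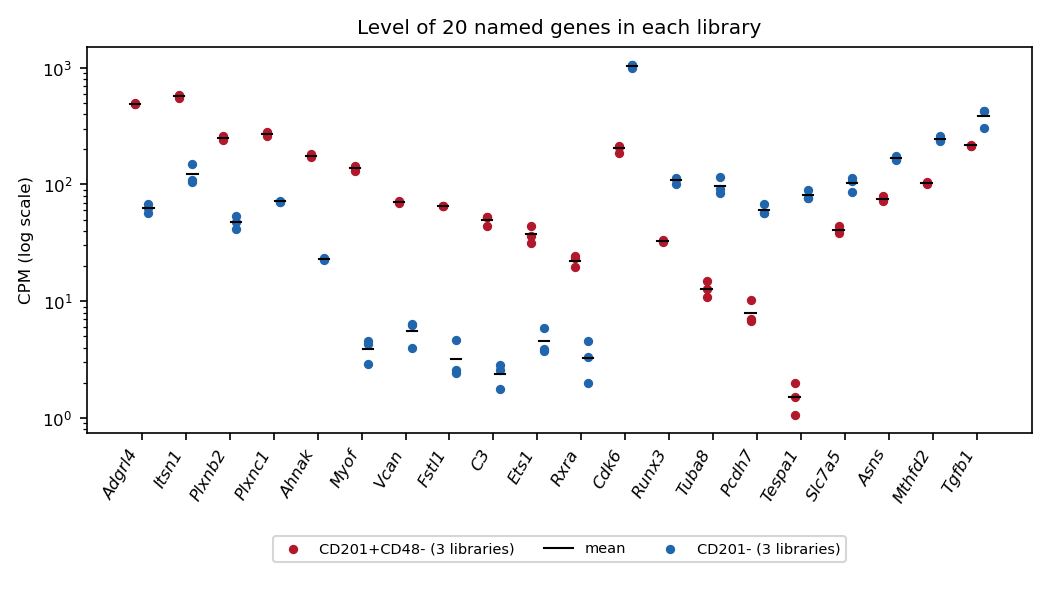
CPM of 20 named genes in each library on a log axis, red points for the 3 CD201+CD48− libraries, blue points for the 3 CD201− libraries and black bars for group means. In each of the 20 genes the red and blue points do not overlap, from Cdk6 at 188 to 213 against 987 to 1065 CPM to Tespa1 at 1.06 to 1.99 against 76.6 to 89.0 CPM.

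Among 32 gene lists, those of surface receptors, ligands and matrix held more higher than lower members, and those of protein synthesis and metabolism the reverse. Each list is given by the number of tested members past the all-gene threshold in each direction and by its median log2 fold change, to be read against 24.2% higher, 23.9% lower and a median of 0.00 over all tested genes. Those shares vary with level, from 33.8% higher and 6.20% lower in the lowest bin to 11.4% and 46.4% in the highest. The lists differ in level and were not matched for it, so the part of level in their shares was not tested. Members under the count filter are in none of these counts: they number 0 for synthetases, ribosomal proteins, proteasome subunits and DNA repair genes, but 45 of 92 G protein-coupled receptors and 54 of 100 matrix genes. A gene of low level passes the filter more readily where it is high in one group, so the shares of such lists are descriptions. Of 58 haematopoietic surface antigen genes, 26 were higher and 11 lower (median 0.30; 7 lower without CD201+CD48− replicate 3 or without CD201− replicate 1). Alcam, the adhesion molecule CD166, stood at 60, 58.4 and 60.9 against 7.97, 9.04 and 10.1 CPM (2.72 ± 0.13), and Cd82, a tetraspanin gene, at 102, 115 and 103 against 21, 21.9 and 22.6 CPM (2.28 ± 0.10). Emcn, the gene of the sialomucin endomucin, stood at 16.1, 13.6 and 13.9 against 1.99, 1.29 and 2.19 CPM. Adgrg1, an adhesion receptor also known as GPR56, did not pass and had values of 1154, 1031 and 1074 against 1046, 1041 and 856 CPM.

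**Figure D3:**
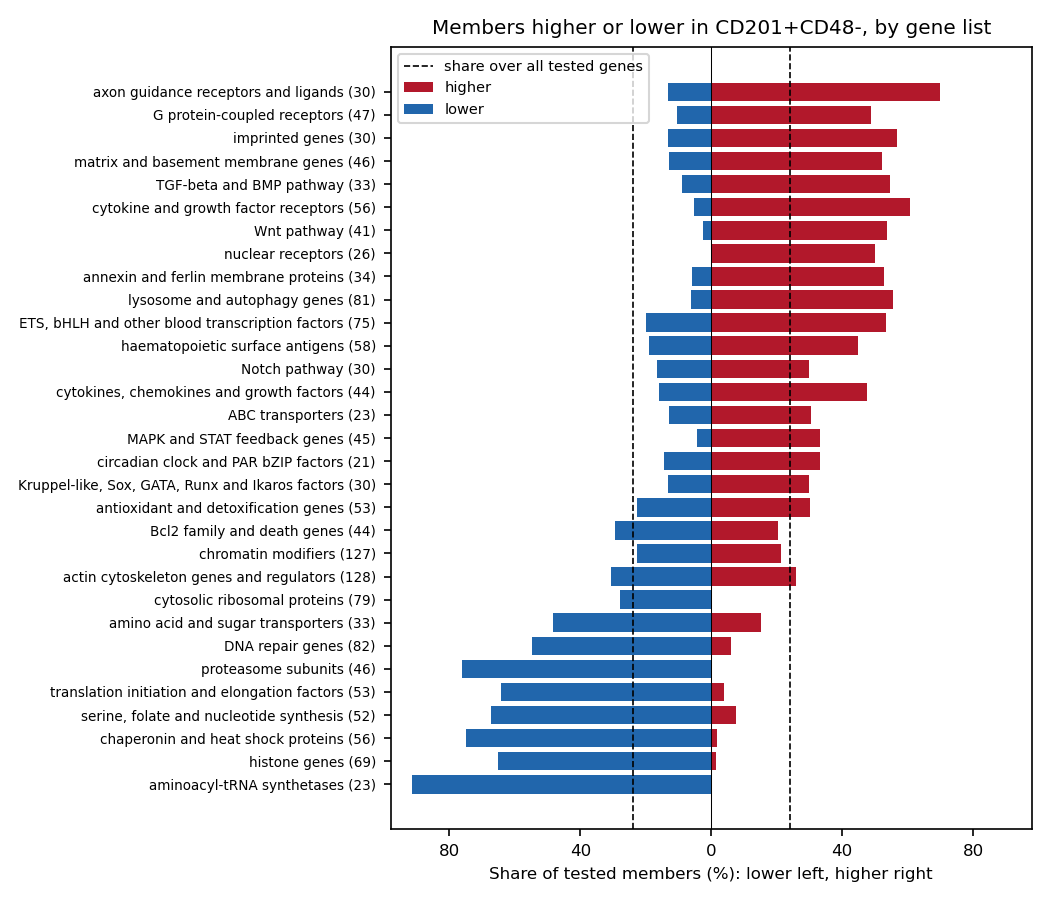
Share of the tested members of 31 gene lists (number tested in parentheses) that were higher (red, to the right) or lower (blue, to the left) in CD201+CD48− cells, sorted by median log2 fold change; the sex-linked list is left out. Dashed lines mark the shares over all tested genes, 24.2% higher and 23.9% lower; axon guidance receptors and ligands are at the top with 21 of 30 members higher, and aminoacyl-tRNA synthetases at the bottom with 21 of 23 members lower.

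Cytokine and growth factor receptors counted 34 higher and 3 lower of 56 tested (median 0.57). Among the lower ones was Pdgfrb, a platelet-derived growth factor receptor gene, with means of 5.17 against 48.4 CPM (−3.17 ± 0.20). Csf2rb2, a beta chain of the interleukin-3 receptor, stood at 66.6, 60.6 and 64.7 against 14.8, 14.6 and 10.7 CPM (2.25 ± 0.14), and the fibroblast growth factor receptor gene Fgfr1 at 30.2, 24.8 and 28.6 against 4.43, 1.72 and 4.6 CPM (2.96 ± 0.26). Il2ra, the interleukin-2 receptor alpha chain, had a log2 fold change of 3.33 ± 0.33, Igf2r, which clears insulin-like growth factor 2, one of 2.18 ± 0.21, and Igf1r one of 0.47 ± 0.07. These receptors span low and high levels, and all were counted in every library. Kit, the receptor of the stem cell factor and a sorted antigen of both populations, was higher by 0.54 ± 0.08. Ligands were split: of 44 cytokines, chemokines and growth factors, 21 were higher and 7 lower (median 0.27; 0.44 without CD201+CD48− replicate 2, and 0.42 and 0.52 without CD201− replicates 1 and 2). Vegfc, a ligand of vascular endothelial growth factor receptors, stood at 11.3, 12.9 and 13.1 against 3.98, 3.87 and 3.73 CPM (1.67 ± 0.21). The fibroblast growth factor gene Fgf3 was lower, with means of 1.12 against 21.7 CPM (−4.15 ± 0.35), as was Hdgf, a heparin-binding growth factor gene (−0.75 ± 0.14). Of 47 G protein-coupled receptors, 23 were higher and 5 lower (median 0.66, and 0.44 without CD201− replicate 3, in which the members lay 0.25 below the other CD201− libraries). The histamine receptor gene Hrh2 (2.02 ± 0.20), the leukotriene receptor gene Cysltr2 (1.46 ± 0.18) and Gpr132 (1.36 ± 0.16) were higher, and the anaphylatoxin receptor gene C3ar1 was lower (−1.35 ± 0.21), opposite to C3.

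Axon guidance receptors and ligands, which also act in cell positioning and vessel growth, counted 21 higher and 4 lower of 30 tested, with the largest median of all 32 lists (0.92). A further 34 of its 64 genes were under the count filter, and the median leaves them out. Plexins, the receptors of semaphorins, made up a good part of it. Plxnc1 (chromosome 10, 94790866 to 94945015) stood at 281, 277 and 258 against 72.4, 71.4 and 70.6 CPM (1.93 ± 0.08, adjusted p = 6.56e-11), and Plxnb2 at 253, 238 and 259.7 against 53.3, 47.6 and 41.9 CPM (2.40 ± 0.10). Plxna3 was higher by 2.15 ± 0.22. The netrin receptor gene Neo1 stood at 26, 25.3 and 23.7 against 1.77, 2.15 and 1.53 CPM (3.76 ± 0.21), the roundabout gene Robo4 at 33.9, 30.3 and 29.7 against 5.53, 4.09 and 7.45 CPM (2.46 ± 0.19) and the ephrin ligand gene Efna1 at 9.53, 10.6 and 12 against 1.11, 0.645 and 0.438 CPM. All 3 were low in each CD201− library. Sema4d (−1.09) and Nrp1 (−2.35) were among the lower members and fall outside the rule by which genes were named; they are given here after their values were seen.

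Wnt pathway genes counted 22 higher and 1 lower of 41 tested (median 0.51; 3 lower without CD201− replicate 3). Tcf7l2, a transcription factor of the pathway, stood at 43.8, 46.5 and 41 against 10.6, 11 and 11.8 CPM (1.97 ± 0.13). The receptor genes Ryk (1.76 ± 0.12), Fzd3 (1.51 ± 0.15) and Lgr4 (1.30 ± 0.25) and the corepressor gene Tle2 (1.19 ± 0.26) were higher, and the kinase gene Csnk1a1 was the 1 lower member (−0.33 ± 0.08). TGF-beta and BMP pathway genes counted 18 higher and 3 lower of 33 tested (median 0.57). Both inhibitory Smads were among the higher ones, Smad6 at 12.2, 9.6 and 10.8 against 3.1, 2.15 and 1.1 CPM (2.36 ± 0.30) and Smad7 at 13.1, 14.9 and 12 against 2.66, 3.01 and 2.85 CPM (2.21 ± 0.25). The co-receptor gene Tgfbr3 stood at 414, 369 and 402 against 174, 182 and 159 CPM (1.20 ± 0.08). The ligand gene Tgfb1 was lower at 215, 212 and 219 against 427, 429.7 and 304 CPM (−0.84 ± 0.11). Id1, a target gene of BMP signalling, was lower as well at 21.5, 27.3 and 19.7 against 52.2, 49.9 and 32.7 CPM (−0.99 ± 0.17), so the members did not all move one way. Notch pathway genes counted 9 higher and 5 lower of 30 tested (median 0.27), and 17 were higher and 2 lower under library size alone. Without CD201− replicate 3 the median was 0.18. The ligand gene Jag1 (2.60 ± 0.26) and the coactivator gene Maml2 (1.27 ± 0.12) were higher and Maml3 (−1.10 ± 0.10) lower. Feedback genes of the MAPK and STAT pathways counted 15 higher and 2 lower of 45 tested (median 0.23; 26 higher under library size alone). The phosphatase genes Dusp3 (1.37 ± 0.13) and Dusp2 (1.11 ± 0.18) were higher. The list also takes in genes of NF-kappaB regulators, of which Nfkbia (128, 140.5 and 143 against 60.6, 68.4 and 54.6 CPM, 1.16 ± 0.10) and Nfkbiz (1.44 ± 0.09) were higher.

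Transcription factors moved in both directions. Of 75 ETS, bHLH and other blood transcription factor genes, 40 were higher and 15 lower (median 0.33). Ets1 stood at 44.5, 36.4 and 31.2 against 3.76, 3.87 and 5.92 CPM (3.05 ± 0.19) and Prdm16, a zinc finger factor needed by HSCs, at 93.6, 88.4 and 88.8 against 20.6, 13.1 and 15.6 CPM (2.46 ± 0.13). Etv6, an ETS factor, had 563, 549 and 540.0 against 541, 519.6 and 545 CPM and did not pass. Among Kruppel-like, Sox, GATA, Runx and Ikaros factors, 9 of 30 were higher and 4 lower (median 0.04, and between 0.00 and 0.07 with each library left out in turn). Their shares were 30% higher and 13.3% lower, against 24.2% and 23.9% of all genes. Runx3 was lower at 33.2, 32.8 and 32.3 against 111, 114 and 101 CPM (−1.73 ± 0.10), while Runx1, a factor of the same family needed for blood formation, had 333, 352 and 338 against 348, 323 and 319.5 CPM and did not pass (0.05 ± 0.07). Sox6 was lower (−1.16 ± 0.23) and Ikzf4 higher by 1.11 ± 0.19. Of 26 nuclear receptors, 13 were higher and 0 lower (median 0.40). The retinoid receptor genes Rxra (24.2, 19.5 and 23.2 against 3.32, 4.52 and 1.97 CPM, 2.77 ± 0.25) and Rara (31.4, 32.8 and 32.5 against 10.6, 8.82 and 7.45 CPM, 1.84 ± 0.14) were higher in every library, with Rarg (0.64 ± 0.13), the vitamin D receptor gene Vdr (0.91 ± 0.16), Ppard (1.34 ± 0.13) and the glucocorticoid receptor gene Nr3c1 (0.38 ± 0.08). Circadian clock and PAR bZIP genes counted 7 higher and 3 lower of 21 tested (median 0.09, and 0.18 without CD201+CD48− replicate 2). Rora stood at 45, 49.3 and 45.2 against 11.7, 13.8 and 15.6 CPM (1.76 ± 0.12) and Arntl, the clock factor BMAL1, was higher by 0.91 ± 0.18. The lower members included Timeless (−0.93 ± 0.11) and Tipin (−0.77 ± 0.09), whose products protect replication forks.

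Matrix, membrane and lysosomal genes were mostly higher. Of 46 matrix and basement membrane genes, 24 were higher and 6 lower (median 0.59). Vcan, the proteoglycan versican (chromosome 13, 89655309 to 89743027), stood at 71.5, 70.5 and 68.9 against 3.98, 6.24 and 6.36 CPM (3.66 ± 0.15). The basement membrane collagen genes Col4a1 and Col4a2, which sit head to head and overlap in the annotation, were higher by 0.66 ± 0.10 and 0.99 ± 0.09. Col4a2 stood at 497, 507 and 523 against 241, 248 and 279 CPM. Annexin, ferlin and related membrane proteins counted 18 higher and 2 lower of 34 tested (median 0.37, and 0.57 without CD201− replicate 3). Ahnak, a giant scaffold at the plasma membrane, stood at 181, 176 and 172 against 23, 22.6 and 23.7 CPM (2.93 ± 0.09, adjusted p = 3.36e-12), and Anxa6 at 197, 173 and 183 against 62, 58.7 and 58.5 CPM (1.63 ± 0.08). The replicates of these genes lay close together in both groups. Of 81 lysosome and autophagy genes, 45 were higher and 5 lower (median 0.37; 2 and 3 lower without CD201+CD48− replicates 1 and 3). The cathepsin genes Ctss (17.1, 15.9 and 17.3 against 0.664, 1.08 and 1.31 CPM, 4.01 ± 0.28), Ctsl (1.05 ± 0.15) and Ctso (1.05 ± 0.12), the peptidase gene Tpp1 (1.03 ± 0.12), the sphingolipid activator gene Psap (260.4, 248 and 257 against 136, 135 and 115 CPM, 0.99 ± 0.08) and the thioesterase gene Ppt1 (0.84 ± 0.08) were higher. Imprinted genes, expressed from one parental allele in many tissues, counted 17 higher and 4 lower of 30 tested (median 0.65; 2 lower without CD201+CD48− replicate 1 or 3). Peg3 stood at 10.2, 10.4 and 12.6 against 0, 0.645 and 0.438 CPM (4.83 ± 0.44, and 5.50 without CD201− replicate 2), Peg10 at 30.4, 30.8 and 26.6 against 11.5, 15.5 and 12.9 CPM (1.13 ± 0.14) and Ppp1r9a at 144, 138 and 147 against 69.7, 58.7 and 69.9 CPM (1.11 ± 0.08). Osbpl5 was lower (−1.45 ± 0.20).

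Genes that supply amino acids, one-carbon units and nucleotides were mostly lower. Of 33 amino acid and sugar transporter genes, 5 were higher and 16 lower (median −0.25; 3 higher without CD201+CD48− replicate 3). Slc7a5, which encodes the light chain of the large neutral amino acid transporter, stood at 38.3, 44 and 41 CPM in CD201+CD48− libraries against 107, 114 and 86.6 CPM (−1.33 ± 0.12, adjusted p = 5.22e-07). Slc7a11, the cystine transporter gene, stood at 32.7, 37.1 and 28.1 against 74.1, 73.8 and 71.2 CPM (−1.17 ± 0.12). Slc7a8 (−1.22 ± 0.13), Slc16a10 (−1.34 ± 0.18), the lactate exporter gene Slc16a3 (−1.08 ± 0.17) and Slc38a1 (−0.36 ± 0.07) were lower too. Serine, folate and nucleotide synthesis genes counted 35 lower and 4 higher of 52 tested (median −0.49). Mthfd2, a mitochondrial folate enzyme (chromosome 6, 83305704 to 83326011), stood at 104, 100.1 and 103 against 262, 241 and 234 CPM (−1.26 ± 0.08, adjusted p = 5.17e-09). Shmt2, which makes glycine from serine in mitochondria, stood at 175, 176 and 178 against 426, 414 and 378 CPM (−1.20 ± 0.08), and Asns, the asparagine synthetase gene, at 73.3, 72.5 and 79.9 against 162, 176 and 165 CPM (−1.16 ± 0.07). In each of these CD201− replicate 3 lay with or below its group, unlike in many genes of translation initiation and elongation factors. Aldh1l2, another mitochondrial folate enzyme, was lower (−1.48 ± 0.17) and the purine synthesis gene Paics (−0.47 ± 0.07). The higher members included the adenylate kinase gene Ak1 (1.56 ± 0.19) and the mitochondrial nucleotide kinase gene Cmpk2 (1.38 ± 0.18).

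Aminoacyl-tRNA synthetases, which load tRNAs with amino acids, counted 21 lower and 0 higher of 23 tested. The list includes Aimp1, Aimp2 and Eef1e1, all lower, which encode partners of the synthetases and not synthetases themselves. Their median of −0.70 was the lowest of the lists, except that without CD201− replicate 3 it was −0.67 and that of histone genes −0.72. Nars stood at 194, 204 and 198 against 388, 386 and 517 CPM (−1.12 ± 0.10), Gars at 272, 304 and 277 against 598, 629.8 and 587 CPM (−1.09 ± 0.08) and Iars at 262, 251 and 245 against 452, 459 and 469 CPM (−0.86 ± 0.08). Lars (−0.93 ± 0.10), Eprs (−0.84 ± 0.11) and Tars (−0.84 ± 0.10) followed. Members lay 0.17 above the other CD201− libraries in CD201− replicate 3, and without it 20 were lower and 1 was higher. Qars and Vars did not pass.

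**Figure D4:**
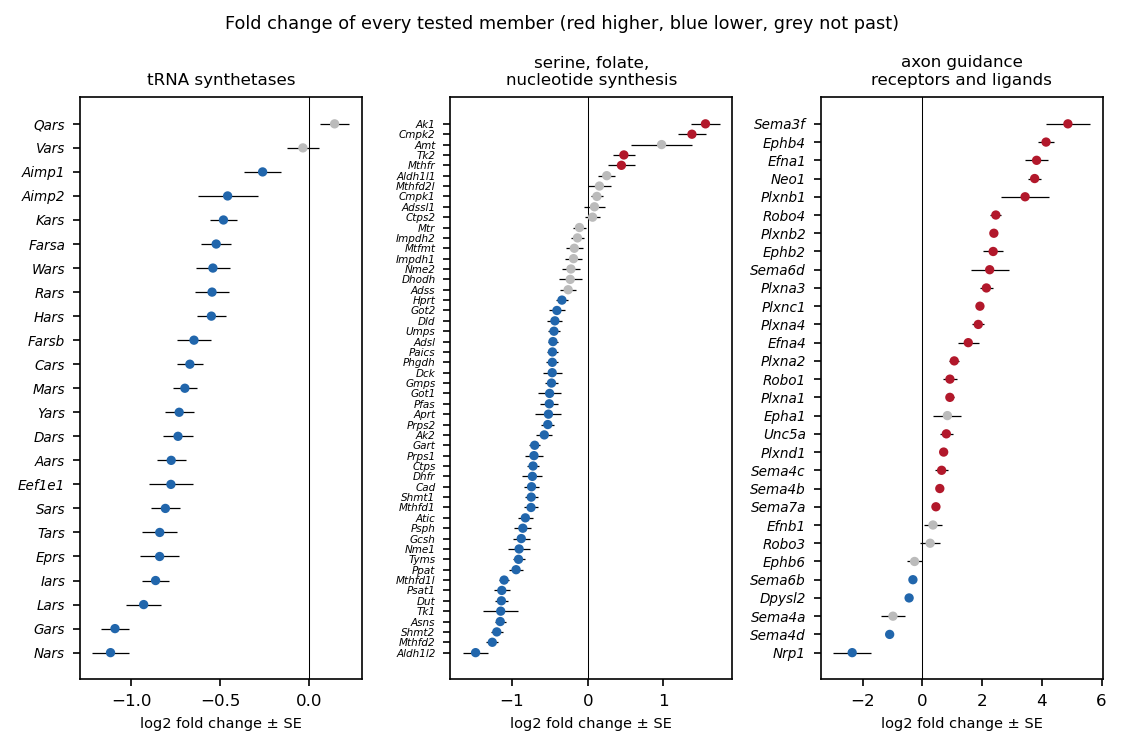
Log2 fold change with its SE of every tested member of 3 lists, one row a gene: aminoacyl-tRNA synthetases (23 genes), serine, folate and nucleotide synthesis (52 genes) and axon guidance receptors and ligands (30 genes). Red points are higher, blue points lower and grey points not past the threshold; nearly all synthetases lie left of 0, from −1.12 for Nars, and most guidance genes right of it.

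The promoters of these amino acid genes are shown for one short motif, because members that move together can be read against their sequence. The core of the amino acid response element, TGATGCAA on either strand, was chosen after the data were seen. It occurred in 0.639% of 11431 promoter windows of tested genes (RefSeq, GRCm38.p6, each 300 bases long, 250 before to 50 after the start), in 4 of 16 windows of synthetases (Iars, Tars, Aars and Yars, all lower) and in 4 of 33 windows of transporters (Slc7a11 and Slc1a4, both lower, and Slc7a7 with 2 windows, which did not pass). One of 56 windows of the serine, folate and nucleotide list held it, that of the transaminase gene Got1, which was lower (−0.50). The stretches below end before the start site and run 5′ to 3′ along the gene, with the match in capitals.
Aars (chr8:111033710-111033757, plus strand): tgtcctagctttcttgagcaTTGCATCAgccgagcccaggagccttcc
Tars (chr15:11399659-11399693, minus strand): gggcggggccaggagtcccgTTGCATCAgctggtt
Slc7a11 (chr3:50443633-50443699, minus strand): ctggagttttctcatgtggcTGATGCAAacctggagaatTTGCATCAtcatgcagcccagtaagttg
Got1 (chr19:43524680-43524727, minus strand): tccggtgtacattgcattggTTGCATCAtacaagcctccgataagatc
Slc7a11 holds the motif 2 times, in opposite directions. A match is a description of these letters and does not show that a factor binds there. Over all lower genes the motif stood in 0.874% of windows, and over all higher genes in 0.658%.

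Translation and protein folding genes were lower as groups, and CD201− replicate 3 was the highest library for many of them. Of 53 initiation and elongation factors, 34 were lower and 2 higher (median −0.41). Eif3b stood at 336, 347 and 333 against 517, 556 and 701 CPM (−0.80 ± 0.10) and Eif5 at 357, 374 and 372 against 535, 543 and 749.7 CPM (−0.73 ± 0.11). Eif2s2, a subunit of the factor that brings the initiator tRNA, stood at 171, 219 and 201 against 323, 332 and 622 CPM (−1.11 ± 0.24). The median deviation of this list in CD201− replicate 3 was 0.13, and without that library 37 members were lower and 2 higher (median −0.34). Of 56 chaperonin and heat shock genes, 42 were lower and 1 higher (median −0.56). Hspd1, the mitochondrial chaperonin, stood at 216, 218 and 219 against 449, 417 and 471 CPM (−1.03 ± 0.08) and Fkbp4, an HSP90 cochaperone, at 147, 144 and 155 against 281, 290.0 and 313 CPM (−0.99 ± 0.07). Hsp90aa1 stood at 777, 955 and 821 against 1388, 1465 and 2458 CPM (−1.06 ± 0.18). Hspd1 and Fkbp4 were even across CD201− libraries, Hsp90aa1 was not, and the list's members lay 0.28 above the others in CD201− replicate 3. Without it 39 were lower and 3 higher (median −0.42).

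Proteasome subunits counted 35 lower and 0 higher of 46 tested (median −0.38). Psmd1 stood at 216, 222 and 212 against 309, 314 and 443 CPM (−0.71 ± 0.12) and Psme3 at 126, 136 and 131 against 188, 184 and 214 CPM (−0.58 ± 0.08). The changes were small, and under library size alone 15 were lower. Cytosolic ribosomal protein genes counted 22 lower and 0 higher of 79 tested, a lower share close to that of all genes (median −0.16). Among all tested genes of the highest level bin, 46.4% were lower. Rpl14 stood at 583, 653 and 640.1 against 846, 860.2 and 986 CPM (−0.52 ± 0.09) and Rpl4 at 1756, 1862 and 1822 against 2227, 2209 and 2522 CPM (−0.36 ± 0.09). Without CD201− replicate 3, 47 were lower, without CD201+CD48− replicate 1, 10 were, and under library size alone 10 were lower and 1 higher, with a median of 0.01. Many of these genes have processed copies in the genome, and the handling of shared reads was not given in the sources used here.

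Genes of DNA repair and chromatin assembly were lower, and chromatin modifiers were not shifted as a list. Of 82 DNA repair genes, 45 were lower and 5 higher (median −0.37). Brca1 stood at 124, 127 and 119 against 181, 206 and 246 CPM (−0.78 ± 0.10), its partner Bard1 at 44.1, 39.9 and 40.7 against 77, 66.3 and 83.1 CPM (−0.85 ± 0.10) and the helicase gene Recql4 at 17.1, 15.2 and 16.2 against 30.1, 36.4 and 36.8 CPM (−1.08 ± 0.13). The DNA polymerase gene Polq was lower (−0.82 ± 0.09). Of 69 histone genes, 45 were lower and 1 higher (median −0.60). Hist1h1b, a linker histone gene, stood at 448, 504 and 454 against 1012, 1023 and 1042 CPM (−1.13 ± 0.08), even across CD201− libraries. Hist1h1d was lower (−0.65 ± 0.08) and Hist1h2an (−1.42 ± 0.12). Histone genes as a list lay 0.42 below the other CD201− libraries in CD201− replicate 3, and without it 54 were lower (median −0.72). Many core histone genes are near copies of each other, most replication histone transcripts lack a poly(A) tail, and the priming of the cDNA was not given in the sources used here. Of 127 chromatin modifiers, 27 were higher and 29 lower (median −0.04), near the shares of all genes, and under library size alone 48 were higher and 16 lower. The sign of that median depended on the setting, at 0.13 under library size alone, 0.03 under upper-quartile scaling and 0.00 without CD201− replicate 3. The maintenance DNA methyltransferase gene Dnmt1 was lower (710.4, 707 and 682 against 1077, 1028 and 1316 CPM, −0.70 ± 0.10). Higher were the Polycomb gene Cbx7 (55.4, 47 and 50.5 against 26.6, 23.7 and 17.5 CPM, 1.18 ± 0.13), the deacetylase gene Hdac9 (108, 102 and 104 against 37.8, 43.9 and 50.6 CPM, 1.24 ± 0.10), Arid5b (2.28 ± 0.17) and the architectural factor gene Hmga2 (0.93 ± 0.13).

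The same windows were searched for a motif of E2F, the factor family that acts at the entry to S phase. E2F-like letters (TTTGGCGC, TTTCCCGC or TTTCGCGC on either strand) occurred in 3.56% of all windows, 6.08% of windows of lower genes and 1.83% of windows of higher genes. The share was larger for lower genes in all 5 bins of level, from 1.52% against 1.10% in the lowest to 7.79% against 2.30% in the highest. The lowest bin held 132 windows of lower genes, so its share rests on few matches. In DNA repair genes they occurred in 12 of 75 windows. Parts of 3 of these and of 1 window of a purine synthesis gene, all of lower genes with the match ahead of the start, show what such a match looks like, with the match in capitals.
Bard1 (chr1:71103154-71103201, minus strand): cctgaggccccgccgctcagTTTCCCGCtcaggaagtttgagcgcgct
Brca2 (chr5:150522433-150522480, plus strand): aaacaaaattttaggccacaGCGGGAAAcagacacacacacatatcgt
Xrcc6 (chr15:82016303-82016350, plus strand): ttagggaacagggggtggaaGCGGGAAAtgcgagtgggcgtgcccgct
Ppat (chr5:76951709-76951809, minus strand): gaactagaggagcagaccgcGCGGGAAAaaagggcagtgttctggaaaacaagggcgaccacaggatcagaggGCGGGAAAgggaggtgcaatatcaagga
Ppat, the first enzyme of purine synthesis, holds the motif 2 times. Xrcc6 encodes the Ku70 subunit of end joining.

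Other short motifs were counted in the same windows. The ETS letters CCGGAAGT stood in 10.4% of windows of lower genes, 4.29% of higher genes and 8.37% of all. Lower genes had the larger share in all 5 bins of level, from 4.55% against 3.16% in the lowest bin to 9.58% against 2.95% in the highest. NRF1 letters (GCGCATGCG) stood in 4.60% of lower, 2.18% of higher and 3.80% of all windows, the CCAAT box in 41.7%, 34.6% and 38.1%, and the E-box CACGTG in 10.7%, 8.65% and 10.0%. The interferon element GAAANNGAA went the other way, with 6.76% of lower, 8.24% of higher and 7.09% of all windows. So did the AP-1 letters TGAGTCA (2.92%, 4.08% and 3.41%) and the GATA letters AGATAAG (1.44%, 2.11% and 1.79%). The cell cycle homology letters TTTGAA stood in 14.5%, 10.8% and 11.9% in the same order. The PAR bZIP letters TTACGTAA, the kind that Hlf is known to bind, stood in 0.456%, 0.104% and 0.192%. Those shares rest on 12, 3 and 22 windows, so the bins of level hold very few matches. By bins of level, lower genes had the larger share in all 5 for CCAAT and the cell cycle homology letters, in 4 for NRF1 and PAR bZIP and in 3 for the E-box, which turned to 6.06% (lower) against 9.20% (higher) in the lowest bin. Higher genes had the larger share in all 5 bins for GATA, in 4 for the interferon element and in 3 for AP-1. None of these letter strings contains another, and every one was searched on both strands. Windows of lower genes had a median of 23 CpG, those of higher genes 18 and all windows 21. CpG content bears on the chance of CpG-rich letters such as NRF1 and E2F, and its part in these shares was not tested. Windows were not available for all genes, and 8936 of 11619 tested genes had one.

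**Figure D5:**
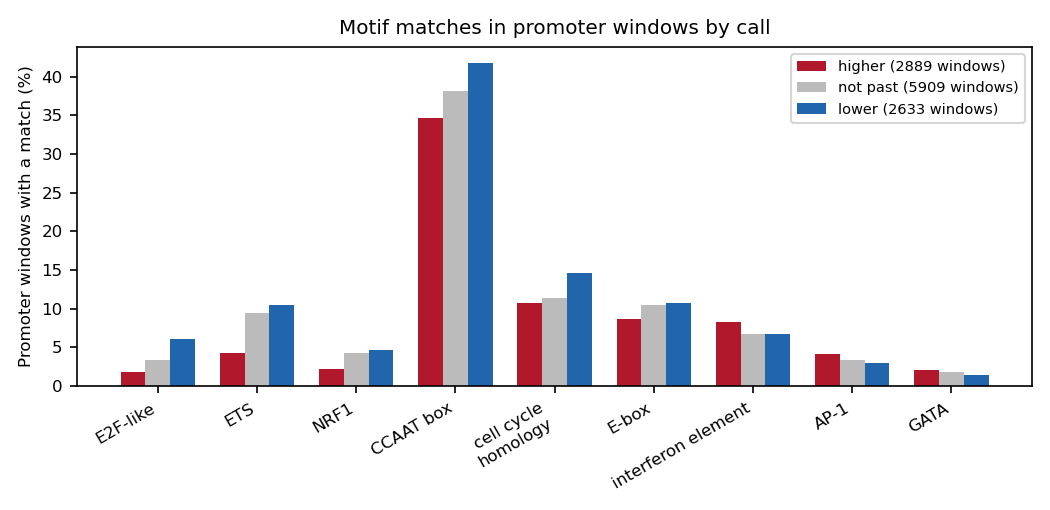
Share of promoter windows with at least 1 match to each of 9 motifs on either strand, for genes higher (red, 2889 windows), not past the threshold (grey, 5909 windows) and lower (blue, 2633 windows) in CD201+CD48− cells. Blue bars are above red bars for the E2F-like, ETS, NRF1, CCAAT, cell cycle homology and E-box letters and below them for the interferon, AP-1 and GATA letters.

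Stress, survival and cytoskeletal genes were mixed. Of 44 genes of the Bcl2 family and cell death, 9 were higher and 13 lower. Their median was 0.00, and it took the other sign in 11 of 16 alternatives, down to −0.08 without CD201− replicate 3. Bcl2 itself was lower at 50.7, 48.5 and 45.6 against 82.1, 73.8 and 84.2 CPM (−0.73 ± 0.09), as were Bid (−0.92 ± 0.16) and Birc5 (−0.68 ± 0.09), and the BH3-only gene Bmf was higher at 24.7, 23.8 and 15.9 against 7.08, 5.38 and 3.94 CPM (1.97 ± 0.23). Mcl1, another survival gene, had 267, 262 and 248 against 237, 236 and 261 CPM and did not pass. Antioxidant and detoxification genes counted 16 higher and 12 lower of 53 tested (median 0.03; 13 and 19 without CD201− replicate 3). The median was −0.07 under the stricter count filter, and −0.01, −0.04 and −0.03 without CD201+CD48− replicate 2, CD201+CD48− replicate 3 and CD201− replicate 1. The glutathione transferase gene Gstm1 stood at 96, 85.7 and 87 against 17.3, 26.2 and 13.4 CPM (2.24 ± 0.16) and the metallothionein gene Mt1 was lower (−1.04 ± 0.21). ABC transporters, which pump lipids and drugs, counted 7 higher and 3 lower of 23 tested (median 0.24, and 0.15 without CD201− replicate 3). The cholesterol exporter gene Abca1 was higher at 82.1, 65.9 and 72 against 27.7, 29 and 27 CPM (1.40 ± 0.10), and Abca4 lower at 13.8, 16.2 and 13.9 against 48.5, 43.7 and 49.3 CPM (−1.70 ± 0.12). Actin cytoskeleton genes and regulators counted 33 higher and 39 lower of 128 tested (median −0.07, 0.01 under upper-quartile scaling, and 0.10 under library size alone, where 49 were higher and 22 lower). The guanine nucleotide exchange factor gene Fgd5 stood at 254, 226 and 232 against 58.2, 61.3 and 74.3 CPM (1.88 ± 0.10), Palld, an actin-bundling scaffold, at 60.7, 56.1 and 59.1 against 15.3, 18.5 and 16 CPM (1.82 ± 0.11) and Arhgef10 at 9.71, 11.9 and 11.7 against 1.11, 0.861 and 0.438 CPM (3.74 ± 0.32).

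The labelled cell type was read against marker lists. Summed levels of 11 HSC markers, without Procr, were 2570 to 2657 CPM in CD201+CD48− libraries and 1489 to 1538 CPM in CD201− libraries. Of 10 tested markers 7 were higher and 2 lower, Gata2 (−0.32) and Meis1 (−0.21). Procr was left out because its protein parts the populations. Kit and Ly6a, the genes of the Kit and Sca-1 antigens in the KSL gate of both populations, were kept. Both were among the higher markers, with means of 509 and 351 CPM for Kit and 21.7 and 9.90 CPM for Ly6a, so the sum is not free of sorted antigens. Of these 11, 10 were counted in both populations, and Hoxb5, under the count filter, had 8 counts in CD201+CD48− and 0 in CD201− libraries. The megakaryocyte list summed to 876 to 895 against 674 to 775 CPM, with 7 of 9 tested markers higher, among them Pf4 (means of 237 and 81.5 CPM), Ppbp (31.6 and 2.77 CPM) and Gp6 (13.9 and 1.53 CPM), and Itga2b lower (298 and 356 CPM). The erythroid list summed to 301 to 339 against 264 to 283 CPM, with the globin gene Hbb-bt higher (206 and 74.0 CPM) and Tfrc lower (106 and 193 CPM), and with Slc4a1 and Hba-a1 at 0. Of 12 neutrophil markers S100a9, Retnlg and Ly6g had 0 counts in all 6 libraries, and Mpo, Elane and S100a8 had 0 in CD201+CD48− libraries alone. The neutrophil list summed to 82.9 to 93.4 CPM against 111 to 125 CPM, mostly the receptor gene Csf3r (means of 66.0 and 88.4 CPM). The mast cell and basophil list summed to 5.09 to 9.60 against 35.9 to 44.3 CPM, carried by Gzmb. Of the 12 mast cell and basophil markers, 6 had 0 counts throughout. In CD201+CD48− libraries the monocyte and macrophage list was higher (150 to 167 against 62.2 to 79.0 CPM), carried by Lyz2, with C1qa and Ly86 at 0 in all 6 libraries. The dendritic list was higher (158 to 170 against 39.9 to 46.0 CPM), carried by Cd74, while H2-Ab1 was lower (−1.51). The endothelial list summed to 1057 to 1165 against 344 to 380 CPM, with Cldn5 and Plvap at under 2 CPM on average and Stab2 at 0, and most of that difference was Vwf. The stromal list was at 97.0 to 119 against 71.4 to 90.5 CPM, mostly Runx2, with Col3a1, Dcn, Lum and Bglap at 0. The B cell list summed to 15.2 to 16.4 against 3.51 to 8.63 CPM, the T and NK cell list to 15.9 to 17.1 against 14.2 to 17.2 CPM and the eosinophil list to 0 to 0.664 against 3.51 to 7.30 CPM. What part such cells have in the results was not tested.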

How the data were processed

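The table of raw counts deposited by the authors gives whole numbers for 49585 gene symbols without normalization. Per the submitters' processing notes the build was mm10 and DESeq2 was used; the aligner, counter, annotation and strand setting were not given in the sources used here. The authors' second table, signal equal to the raw counts divided by a size factor per sample, served one alternative alone, and 26 of its gene names had become dates. A further 3 columns, whose names match none of the samples, were left out. Per the labels' protocols, RNA was taken up in Trizol LS, SMARTer cDNA was prepared, and reads were paired and 36 nt long.

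Genes were kept by filterByExpr (minimum count 10), scaled by TMM and compared by the quasi-likelihood F test in edgeR 4.0.16 in R 4.3.3, all 9 libraries in one fit with group as the factor. Benjamini-Hochberg adjustment of p-values ran over all 11619 tested genes, with a threshold of 0.05. SE is the size of the log2 fold change over the root of the F statistic, with a median of 0.13 over genes, and the common biological coefficient of variation was 8.64%. CPM use TMM-scaled library sizes. Same-numbered libraries did not deviate together (correlations of 0.03, −0.06 and −0.05), so no pairing was used. Alternatives with DESeq2 1.42.0 and limma 3.58.1, other scalings and filters, and each library left out are described in the closing section. The fit was tested on simulated counts. It recovered 56.7% of genes changed 1.5-fold, 89.6% of those changed 2-fold and 97% of those changed 4-fold, and called 7 unchanged genes. Only 67, 67 and 66 of 11619 genes were changed by these folds, as many up as down, and counts were drawn with the fitted spread. In the data 48.1% of genes were called, so the simulation cannot show how scaling and false calls behave where so many genes differ. No shift shared by many genes of a single library, as in CD201− replicate 3, was simulated.

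The members and the gene lists were chosen with earlier results of these data known. Genes named are those of the sorted antigens, the 30 largest folds each way (10 CPM or more on average in the higher group, replicates that do not overlap, no predicted or clone symbol), the 15 largest CPM differences each way, and in each list up to 6 by fold and up to 2 by level; 297 genes met the rule and those of most use are described. Genes named beside a motif, Gata2, Meis1 and other cell type markers, and those said to be chosen after their values were seen fall outside it. List members with no row of that symbol were Flt3l, Bcl9l, Spry3, Hspa14 and Hymai. Positions are those of RefSeq on GRCm38.p6, the assembly of mm10, which held 11460 (98.6%) of the tested symbols. Of the 297 genes, 143 overlap another annotated gene, and their counts are less certain as the strand setting is unknown.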

Additional observations from a re-analysis of the deposited data

How the results depend on the processing

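Over 16 alternatives the counts of calls stayed within 1.5 times the reported ones, except under library size alone, where 1685 genes were lower and 163 were lower by at least 2-fold (reported 2778 and 254). No gene past the threshold in the fit reported changed direction among the genes of any alternative. Upper-quartile scaling gave 58.5% of calls upward. Leaving out each library in turn gave 2433 to 3021 higher genes, 2321 to 3071 lower, 1139 to 1261 higher by at least 2-fold and 248 to 289 lower by at least 2-fold. The highest of the first 2 counts came without CD201− replicate 3, where 2601 of the 2807 higher and 2605 of the 2778 lower genes were called again. Over the 183 genes named by rule, calls were lost 7 times, all for Slamf1, and gained 4 times, under library size alone for Adgrg1, Runx1, Etv6 and Mcl1. With the replicate number as a block, 2690 genes were higher and 2632 lower, 1150 and 246 by at least 2-fold; the numbers did not pair the samples. Of 512 list medians (32 lists, 16 alternatives) 23 took the other sign, in 6 lists. Under library size alone these were cytosolic ribosomal proteins (0.013), actin cytoskeleton genes (0.10, and 0.0055 under upper-quartile scaling) and chromatin modifiers (0.13; 3 of 16 alternatives). The others were reported within 0.04 of 0: Bcl2 family genes (11 alternatives, to −0.08), antioxidant genes (4, to −0.07) and sex-linked transcripts (2, to −0.0057). Low depth limits the genes of the lowest level bin most, where a few counts in CD201− libraries set the fold. Median log2 SE over all genes was 0.13.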

Other observations

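Some strongly higher genes were neighbours. Runs of at least 4 tested genes that follow each other along a chromosome and were all higher by at least 2-fold were found 5 times. No such run of lower genes was found, but only 2.19% of tested genes were lower by that much, against 10.0% higher. Runs of lower genes were thus far less likely from the start, and how many runs these shares alone would give was not tested. One run on chromosome 11 (96251660 to 96290163, mm10) holds Gm53, Hoxb9, Hoxb8 and Hoxb7, with log2 fold changes from 4.14 to 6.70. A second on chromosome 11 (69765912 to 69805624) holds Zbtb4, Chrnb1, Fgf11 and Tmem102 (1.43 to 3.09). On chromosome 5 (104935057 to 105295871) Abcg3 stood beside the guanylate-binding protein genes Gbp8, Gbp9 and Gbp6 (3.93 to 7.55), and on chromosome 6 (48394643 to 48534832) Krba1, Zfp467, Sspo and Zfp862-ps ran together (1.63 to 5.15). The remaining run, on chromosome 18, holds Chsy3, Gm4951, Gm4841, F830016B08Rik and the interferon-inducible GTPase gene Iigp1 (2.95 to 4.09). These genes were named after their values were seen. Genes in such clusters are often similar to each other or overlap, and the handling of shared reads was not given in the sources used here.

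Higher genes also spanned more of the genome. The median distance from start to end of the annotated gene was 31.7 kb for higher, 21.9 kb for lower and 24.0 kb for all tested genes with a position. Long noncoding RNA genes counted 60 of 2807 among higher genes (2.14%), 18 of 2778 among lower genes (0.648%) and 246 of 11619 among all tested (2.12%). Within the 5 bins of level the span of higher genes was the larger in each, from 24.0 against 15.5 kb in the lowest to 64.0 against 27.1 kb in the highest. The share of long noncoding RNA genes was larger for higher than for lower genes in 3 of the 5 bins. Of these genes, 43 of the 60 higher and 4 of the 18 lower ones were in the lowest bin (5.48% and 2.78% of its higher and lower genes). Genes that missed the threshold had a larger share than higher genes there, 8.75%, and in the next bin, 2.08% against 1.43%.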
